A study of Mus musculus with 52 samples.

Results

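The genes described here are 10 genes of meiotic prophase in mouse testes: Sycp1, Sycp2, Sycp3, Syce1, Syce2, Syce3, Hormad1, Spo11, Dmc1 and Stra8. They were chosen by gene name from the 34865 genes listed for testes, and each of the 10 names matched 1 gene. Poly(A) RNA of wild-type mice was compared with that of mice lacking both copies of Tug1, a long noncoding RNA gene. In the deletion allele (Tug1_tm1.1Vlcg, written Tug1-/- here) a lacZ cassette replaces the gene body, and the promoter and the first exon remain. Testes came from 4 wild-type, 4 Tug1-/- and 3 rescue mice. Rescue mice were Tug1-/- and carried tg(Tug1), a doxycycline-inducible transgene integrated at random that encodes a Tug1 isoform without its 5′ region, together with CAGs-rtTA3, a transactivator allele for its systemic induction. Their dams were fed doxycycline from the plug date, and the rescue mice stayed on that diet until they were sampled, so that the transgenes and doxycycline cannot be told apart in the rescue comparisons. By the labels, all testes were of C57BL/6J/129S6 background, and the Neo cassette and lacZ are named for the Tug1-/- and rescue testes and not for the wild type, although the study's methods describe removal of Neo. Deletion, lacZ and any Neo that remained cannot be told apart in these groups. The other tissues are labelled with the same strains and no Neo. Tissues were from adult mice and MEFs from male embryos of mid-gestation litters at a low passage, and the exact age of the mice sampled for sequencing is not given in the sources used here. There were also 3 samples of each genotype from spleen, liver, heart, eyes and MEFs (fibroblasts cultured from embryos), and from prostate 3 wild-type and 2 Tug1-/- samples, all from males.

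The values read here are the authors' group means in TPM (transcript counts scaled to the same total in every sample), a level corrected for gene length that can be set side by side between genes. The tables hold no value of a single sample. Depth per sample and the spread between mice are therefore not known here. The authors' own statistics were not used, no interval is given, no difference below was tested, and each ratio is a description of group means. For Tug1 itself the testes means were 40.1 TPM (wild type), 0.885 TPM (Tug1-/-) and 1.60 TPM (rescue), and its Tug1-/- mean was at most 0.512% of wild type in each other tissue. The Tug1 level of rescue testes was thus 4.0% of the wild-type mean. A defining gene of each other tissue but eyes (Cd79a in spleen, Alb in liver, Myh6 in heart, Pbsn in prostate and Col1a1 in MEFs) had its highest wild-type mean in the labelled tissue.

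In meiotic prophase, homologous chromosomes pair and are held along their length by the synaptonemal complex, a zipper-like protein structure. Its lateral axes hold SYCP2 and SYCP3, and HORMAD1 lies mainly on axes that have not yet paired. The transverse filaments of the complex are made of SYCP1, and its central element holds SYCE1, SYCE2 and SYCE3. SPO11 cuts the DNA to start recombination, and DMC1 is the recombinase that carries the cut ends to the homologous chromosome. STRA8 is a transcription factor that germ cells need to enter meiosis in response to retinoic acid. In the testis these genes are known as genes of late spermatogonia and spermatocytes.

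RefSeq promoter windows (250 bases before and 50 after an annotated start) of the same genome build were at hand for 9 of the 10 genes, Spo11 being the one without an entry. The E-box CACGTG, which reads the same on both strands, was found in 5 of the 12 windows of these genes (those of Hormad1, Sycp1 and Sycp3 and 1 of Syce2), while 7.15% of the 32851 windows of all genes hold it. GCGGGA, a letter pattern of E2F sites, was found on either strand in 7 of the 12 windows (those of Dmc1, Hormad1, Syce2, Sycp1 and Sycp3), against 20.0% of all windows. AACNGNC, a pattern of MYB sites, was in 9 of 12 windows against 32.8% of all windows, CNCCTCAG, a pattern linked with STRA8, in 2 of 12 against 7.94%, and GGGCGG in 6 of 12 against 35.7%. The 12 windows had a GC content of 54.7% to 69.3%, above the median of 52.7% over all windows, and its part in the counts was not tested. Hormad1, Syce2 and Syce3 have 2 overlapping windows each, so the windows are not independent, and a match describes letters in a window, not a bound site. The 100 bases just before the start are shown for the 3 genes whose E-box lies there outside the transcribed part, since they show how close to the start and how often the motif stands. The sequences are those of RefSeq for GRCm38.p6, written 5′ to 3′ on the strand of the gene, with CACGTG in capitals. That of Hormad1 is chr3:95559577-95559676 on the plus strand, that of Sycp1 chr3:102936101-102936200 on the minus strand, and that of Sycp3 chr10:88459487-88459586 on the plus strand, whose last 18 bases lie inside the gene in the deposited coordinates.
Hormad1: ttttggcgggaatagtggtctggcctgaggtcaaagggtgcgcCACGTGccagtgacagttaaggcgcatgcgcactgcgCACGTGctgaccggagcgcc
Sycp1: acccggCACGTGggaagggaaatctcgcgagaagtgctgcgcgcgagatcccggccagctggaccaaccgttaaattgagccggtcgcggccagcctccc
Sycp3: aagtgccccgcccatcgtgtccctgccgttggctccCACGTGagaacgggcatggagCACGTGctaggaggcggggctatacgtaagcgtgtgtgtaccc

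In the Hormad1 stretch the E-box starts 57 and 20 bases before the RefSeq start, and in the Sycp3 stretch it starts 64 and 43 bases before it. Sycp1 has 1 copy, 94 bases before its start. In Syce2 the match lies 88 bases before the downstream of its 2 annotated starts and is not shown, as that stretch is transcribed from the upstream start. Windows of Sycp2, Syce1, Syce3, Dmc1 and Stra8 hold no CACGTG.

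The 10 genes lie on 7 autosomes, by GRCm38 coordinates of the deposited table. The genes of the zipper and its axes are Sycp1 (chr3:102818499-102936100, minus strand), Syce1 (chr7:140777229-140787852, minus), Syce2 (chr8:84872111-84888221, plus), Syce3 (chr15:89390174-89410503, minus), Sycp2 (chr2:178345293-178407685, minus), Sycp3 (chr10:88459569-88473236, plus) and Hormad1 (chr3:95559677-95587671, plus). The others are Spo11 (chr2:172977700-172993576, plus), Dmc1 (chr15:79561500-79605084, minus) and Stra8 (chr6:34920163-34939344, plus). In the GENCODE vM21 annotation the longest coding transcript ranges from 480 bases in 3 exons (Syce3) to 5717 bases in 44 exons (Sycp2). Sycp3 lies inside Chpt1, a gene of phospholipid synthesis on the opposite strand, and 660 of its 1264 exonic bases are also exonic in Chpt1. The library kit (TruSeq RNA v2) does not mark strand, so reads from these bases cannot be assigned to either gene, and the Sycp3 level rests on the remaining exons or is mixed with Chpt1. Chpt1 had 37.6 TPM in wild-type, 36.7 TPM in Tug1-/- and 35.9 TPM in rescue testes, below Sycp3 there, while in wild-type heart (124 TPM), liver (92.1 TPM) and eyes (33.4 TPM) it stood far above the Sycp3 levels given below. Syce2 overlaps the 3′ end of Gcdh on the opposite strand, with 0 exonic bases in common.

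All 10 genes had means of at least 16.9 TPM in wild-type testes, and their levels spanned a 38.5-fold range. Syce1, of the central element, had the highest level at 653 TPM in wild type, 644 TPM in Tug1-/- and 687 TPM in rescue testes, and ranked 179 among all 34865 genes in wild type. The 3 means of Syce1 lie close together, with Tug1-/- the lowest and rescue the highest. The other 2 central element genes were far lower and near each other. Syce2 had means of 178 TPM in wild type, 169 TPM in Tug1-/- and 170 TPM in rescue testes, and Syce3 had 166, 174 and 181 TPM in the same order. Syce2 was thus lower, and Syce3 higher, in both deletion groups than in wild type. Sycp1, the transverse filament gene, had 180 TPM in wild type, 198 TPM in Tug1-/- and 201 TPM in rescue testes, so that both deletion groups lie above the wild type.

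The axis genes had levels like that of Sycp1. Sycp2 had means of 218 TPM in wild type, 230 TPM in Tug1-/- and 235 TPM in rescue testes. Sycp3 had 201, 213 and 225 TPM, and Hormad1, which marks axes that have not yet paired, had 179, 196 and 209 TPM. In each of the 3 axis genes wild type was lowest and rescue highest.

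The recombination and entry genes were the lowest of the set. Spo11 had 51.3 TPM in wild type, 56.6 TPM in Tug1-/- and 55.4 TPM in rescue testes. Dmc1 had 25.4, 27.2 and 27.8 TPM, and Stra8 had 16.9, 19.1 and 19.7 TPM, ranks 6088 and 7907 in wild type. For these 3 genes both deletion groups had higher means than wild type. Summed over the 10 genes the means came to 1868 TPM in wild type, 1928 TPM in Tug1-/- and 2011 TPM in rescue testes, or 0.187%, 0.193% and 0.201% of all TPM.

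**Figure D1:**
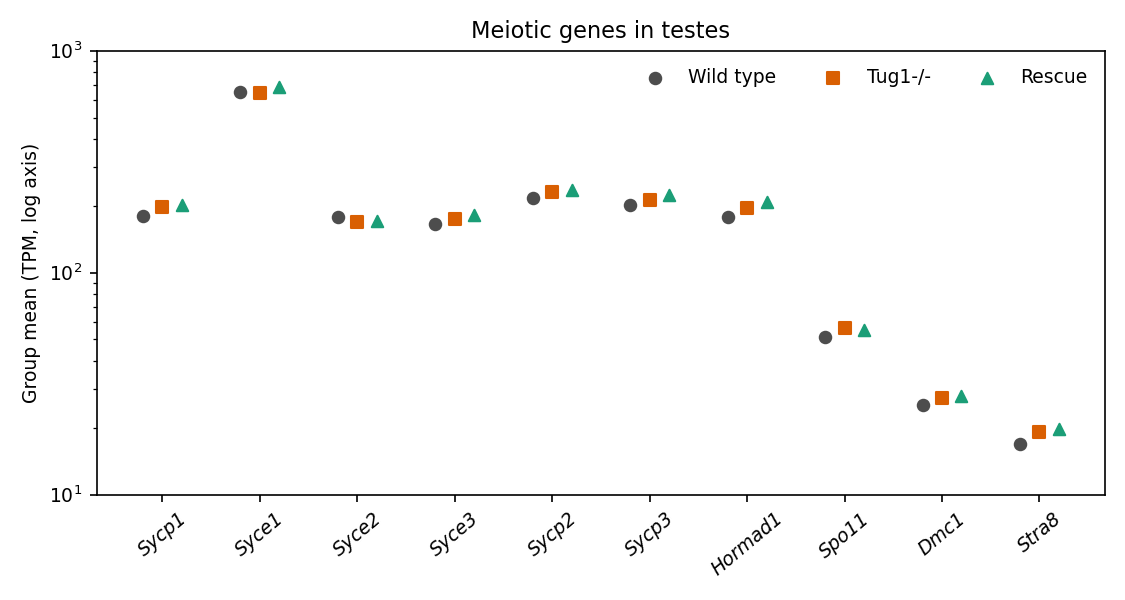
Group means in TPM (log axis) of the 10 meiotic genes in wild-type, Tug1-/- and rescue testes, as the authors deposited them and hence with no error bars. The 3 symbols of each gene nearly coincide, while the genes range from 16.9 TPM (Stra8, wild type) to 687 TPM (Syce1, rescue).

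The comparison of Tug1-/- with wild-type testes asks whether the meiotic genes differ where Tug1 is deleted. A mean at least 25% higher or 20% lower than the other, the same ratio in either direction, is called past the bound. None of the 10 genes was past it, 0 of 10, against a background of 14.7% of the 22669 genes with a mean of at least 1 TPM in any testes group. The share past it was 5.15% among the 10372 genes with at least 10 TPM in wild-type testes, the range that holds all 10 genes. Ratios were formed after adding 0.1 TPM to each mean. Stra8 had the highest ratio, with a mean 12.8% above that of wild type, followed by Spo11 (10.3%), Sycp1 (10.2%), Hormad1 (9.80%) and Dmc1 (7.09%). Sycp3 (6.01%), Sycp2 (5.42%) and Syce3 (4.74%) came next. Syce1 (0.987-fold) and Syce2 (0.952-fold), both of the central element, were the only members of the 10 below 1. With 8 of 10 higher in Tug1-/- testes, the count stands beside 61.6% of all genes higher, and 67.5% of those with at least 10 TPM. The median log2 ratio of the 10 genes was 0.09 (0.06 after subtracting the median of all genes), while that of all genes was 0.03 with a middle range (25th to 75th percentile) of -0.05 to 0.12. Of the 10 genes, 5 lie inside that range and 10 inside the 5th to 95th percentiles (-0.43 to 0.43). Among genes with at least 10 TPM in wild type the middle range was narrower, -0.017 to 0.087, and held only Syce3, Sycp2 and Sycp3. The 5th to 95th percentiles of that set, -0.146 to 0.241, held all 10. At a narrower bound of 1.1-fold, 3 of the 10 genes (Sycp1, Spo11 and Stra8) were past it, beside 36.9% of all genes.

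The comparison of rescue with Tug1-/- testes asks what differed where the transgene was present. The same Tug1-/- mice stand in both comparisons, so the values below share them with those above. Again 0 of 10 genes were past the bound, beside 12.5% of all genes and 3.05% of those with at least 10 TPM in wild type. Hormad1 and Syce1 had the highest ratio, both 1.07-fold, and Sycp3 had 1.05-fold. Syce3 (1.04-fold), Stra8 (1.03-fold), Sycp2 and Dmc1 (both 1.02-fold), Sycp1 (1.01-fold) and Syce2 (1.01-fold) were nearer to 1, and Spo11 was the 1 gene below it, at 0.980-fold. The 9 of 10 genes with a higher mean in rescue testes stand beside 52.0% of all genes and 57.9% of those with at least 10 TPM in wild type. The median log2 ratio of the 10 genes was 0.04, that of all genes 0.01, and 8 of the 10 genes lie within the middle range of all genes, -0.09 to 0.08. Among genes with at least 10 TPM in wild type that range was -0.043 to 0.068, and Hormad1, Syce1 and Sycp3 lie above it.

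In rescue against wild-type testes, 0 of 10 genes were past the bound, beside 18.0% of all genes and 6.69% of those with at least 10 TPM in wild type. The largest ratios were those of Hormad1 (1.17-fold), Stra8 (1.16-fold), and Sycp1 and Sycp3 (both 1.12-fold). Dmc1 (1.09-fold), Syce3 (1.09-fold), Spo11 (1.08-fold), Sycp2 (1.08-fold) and Syce1 (1.05-fold) followed. Syce2 had 0.957-fold and was the 1 gene with a lower mean in rescue testes. Higher means were seen for 9 of 10 genes, beside 59.7% of all genes and 66.9% of those with at least 10 TPM. The median log2 ratio was 0.13 for the 10 genes and 0.04 for all genes. At a bound of 1.1-fold, 4 genes (Hormad1, Stra8, Sycp1 and Sycp3) were past it, beside 45.7% of all genes.

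**Figure D2:**
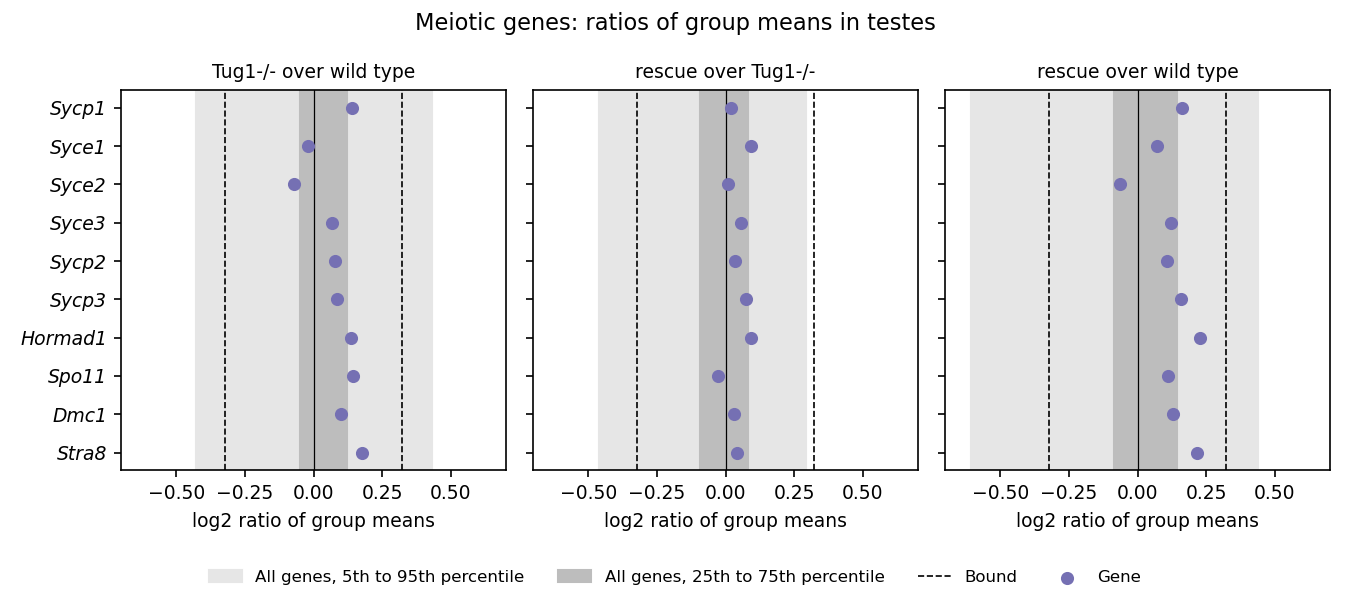
Log2 ratio of group means for each of the 10 genes in the 3 testes comparisons, with the 25th to 75th and 5th to 95th percentiles of all 22669 genes as grey bands and dashed lines at 25% higher and 20% lower. All 10 points of each panel lie between the dashed lines, and Stra8 (0.17) and Syce2 (-0.07) are the ends of the range for Tug1-/- over wild type.

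Other genes of chromosome pairing and recombination, 42 genes in 7 lists, were read in the same way. Of these, 41 were found and 40 had at least 1 TPM, Mei4 being below it. In Tug1-/- over wild-type testes 0 of 40 were past the bound, 37 of 40 had a higher mean in Tug1-/- testes, and the median log2 ratio was 0.06. Over all genes 14.7% were past the bound and 61.6% higher, and over those with at least 10 TPM in wild type 5.15% and 67.5%. At 1.1-fold, 10 of 40 were past, beside 36.9% of all genes. These genes thus had ratios in the same narrow range as the 10, from 0.973 to 1.17.

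Among central element partners, Tex12, whose protein binds SYCE2, had a wild-type mean of 34.3 TPM and a Tug1-/- mean of 38.5 TPM (1.12-fold), and 4930447C04Rik (Six6os1) had 18.1 and 18.4 TPM (1.02-fold). In the axis and cohesin list, Trip13, the ATPase that removes HORMAD proteins from paired axes, was highest at 1.15-fold, and Rec8, the meiotic cohesin kleisin, lowest at 0.981-fold. The 6 genes of that list had a median log2 ratio of 0.06. In the list of genes for DNA break formation, Gm960 (Top6bl), which encodes the partner subunit of SPO11, was highest with a log2 ratio of 0.13, and Rec114, which helps SPO11 to act, was lowest at 0.973-fold.

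In the strand exchange list Psmc3ip, a cofactor of DMC1, was the lowest of the 8 genes at 1.02-fold. In the crossover list Tex11, an X-linked gene of crossover formation, had the highest ratio of all 40 genes at 1.17-fold (12.3 TPM in wild type, 14.4 TPM in Tug1-/- and 15.6 TPM in rescue testes). Rescue over wild type put Tex11 at 1.27-fold, the 1 gene of the 40 past the 25% bound in that comparison, beside 18.0% of all genes and 6.69% of those with at least 10 TPM in wild type. Genes of telomere attachment ran from 1.01-fold (Sun1, a nuclear membrane protein) to 1.07-fold (Ccdc155, also KASH5, its partner). The 4 other genes of meiotic entry ran from 1.08-fold (Dazl, an RNA-binding protein of germ cells) to 1.13-fold (Gm4969, also Meiosin, the partner of STRA8), beside 1.13-fold for Stra8.

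TPM are shares of a whole, and in a bulk sample fewer cells of a type and less RNA per cell cannot be told apart. Marker lists of the other cell types of the testis are therefore given beside the meiotic genes, and their part in the ratios was not tested. None of the markers was at 0 in any testes group. The counts below, for Tug1-/- over wild type, stand beside the 61.6% of all genes that were higher and the 14.7% past the bound (67.5% and 5.15% of those with at least 10 TPM in wild type). Markers of later spermatocytes, led by Ldhc (the germ cell lactate dehydrogenase), summed to 7882 TPM in wild type, 7997 TPM in Tug1-/- and 7903 TPM in rescue testes, and 4 of 6 were higher in Tug1-/- than in wild type, with a median log2 ratio of 0.03. Spermatid markers, led by Prm1 (a protamine that packs sperm DNA), summed to 52704, 50036 and 48743 TPM, with 4 of 8 higher and a median of -0.03. Spermatogonia markers, led by Uchl1, summed to 104, 107 and 118 TPM, with 6 of 8 higher, a median of 0.10 and 1 past the bound, Gfra1, at 0.351-fold. No later spermatocyte or spermatid marker was past it. The medians of the 3 germ cell lists thus lay on both sides of the 0.09 of the 10 meiotic genes.

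Lists of somatic cells had higher median ratios. Sertoli cell markers, led by Clu, summed to 1042 TPM in wild type, 1075 TPM in Tug1-/- and 1113 TPM in rescue testes, and 6 of 7 were higher in Tug1-/- testes, 4 of them past the bound, with a median log2 ratio of 0.34. Clu, the 1 marker with a lower mean (0.954-fold), made up most of that sum, and the other 6 summed to 194 TPM in wild type, 266 TPM in Tug1-/- and 296 TPM in rescue testes. Leydig cell markers, led by Cyp17a1 of androgen synthesis, summed to 528, 805 and 687 TPM, with 6 of 6 higher, 5 past the bound and a median of 0.63. Macrophage markers, led by C1qa, summed to 31.8, 40.5 and 43.7 TPM, with 4 of 4 higher, 2 past the bound and a median of 0.23. Markers of muscle-like and endothelial cells, led by Acta2, summed to 105, 141 and 121 TPM, with 4 of 4 higher, 2 past the bound and a median of 0.31. Among the 7 marker lists, the 4 somatic lists were those with the highest median.

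**Figure D3:**
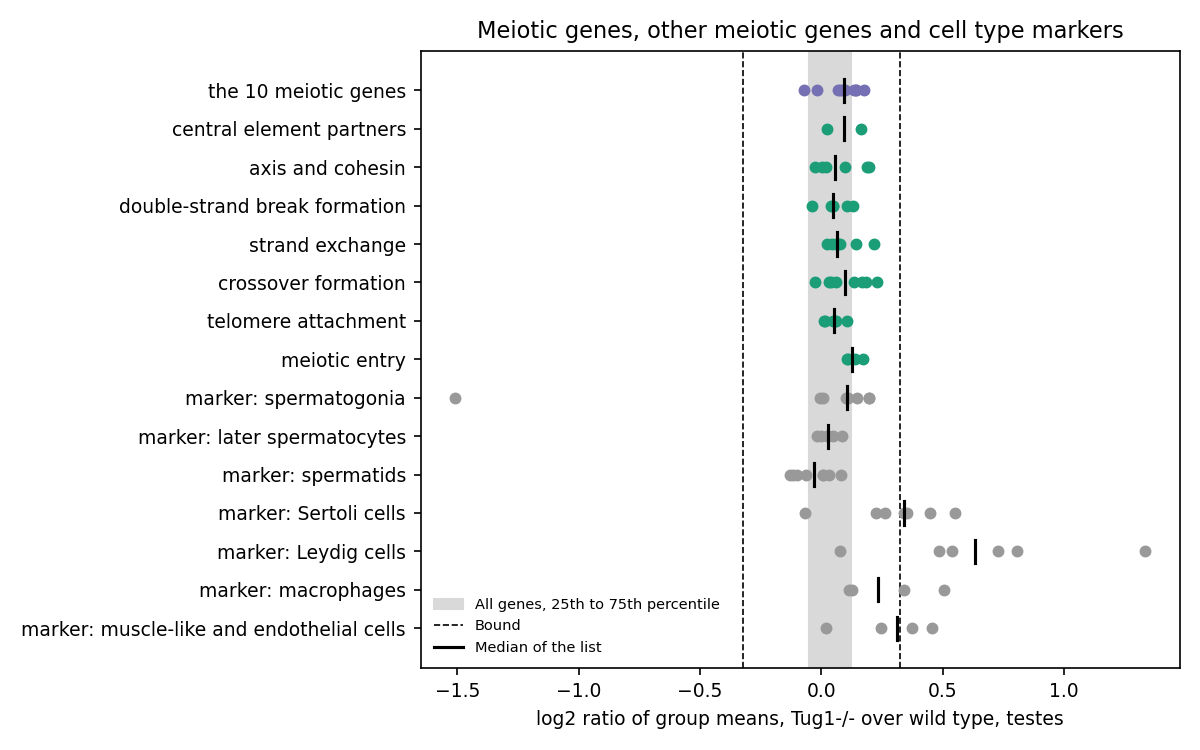
Log2 ratio of group means, Tug1-/- over wild-type testes, for the 10 meiotic genes, 7 lists of other meiotic genes and 7 lists of cell type markers, with 1 point a gene, the median of each list as a bar, dashed lines at 25% higher and 20% lower and the 25th to 75th percentile of all genes in grey. Meiotic genes lie between the dashed lines, and points past them belong to marker lists.

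Outside testes the 10 genes were listed in 35 of 60 combinations of gene and tissue, since a gene is listed for a tissue where it passed the authors' minimum of 3 reads. The tissues were normalized separately, so levels set across them are descriptive. Of its summed wild-type level over 7 tissues, at least 95% lay in testes for 8 of 10 genes, beside 20.4% of the 21805 genes with at least 1 TPM in wild-type testes. Hormad1 (99.96%), Syce3 (99.95%), Syce1 (99.8%), Sycp1 (99.7%) and Sycp2 (99.3%) had the highest shares, followed by Sycp3 (98.1%), Stra8 (97.0%) and Spo11 (95.3%). Dmc1 (90.5%) and Syce2 (83.3%) were below the bound.

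Hormad1, Syce3, Sycp1 and Stra8 were each listed in 1 other tissue. Hormad1 had 0.0727 TPM in wild-type spleen and 0.0809 TPM in Tug1-/- spleen, and Syce3 had 0.0893 and 0.312 TPM in liver. Stra8 had a mean of 0.528 TPM in spleen of wild type and 0.334 TPM in that of Tug1-/- mice. All of these are below 1 TPM. Sycp1 was listed in prostate, with 0.538 TPM in wild type and 1.20 TPM in the mean of the 2 Tug1-/- samples, a ratio of 2.05-fold. Its mean normalized count there, a score over all prostate samples that the authors deposited, was 37.4, and Syce1, Sycp2, Syce3, Hormad1 and Stra8 were not listed in prostate. Of the others, wild-type prostate had 4.17 TPM of Syce2, 0.466 TPM of Sycp3, 0.352 TPM of Dmc1 and 0.0671 TPM of Spo11.

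Syce2 was the one of the 10 genes with at least 1 TPM in all 6 other tissues. In wild type it had 10.9 TPM in spleen, 7.69 TPM in eyes, 6.38 TPM in liver, 5.45 TPM in MEFs, 4.17 TPM in prostate and 1.1 TPM in heart. In Tug1-/- samples it had 16.5 TPM in spleen, 6.32 TPM in eyes, 4.75 TPM in liver, 5.62 TPM in MEFs, 4.36 TPM in prostate and 1.30 TPM in heart. Spleen was thus the highest and heart the lowest in both genotypes, and without values of single samples the neighbours in that order cannot be separated. Gcdh, a mitochondrial dehydrogenase gene that overlaps Syce2, was highest in liver (569 TPM in wild type) and had 23.6 TPM in spleen, an order unlike that of Syce2. Its part in the Syce2 levels was not tested.

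The remaining genes outside testes had means below 3 TPM. Sycp3 was listed in all 6 tissues, from 0.186 TPM in MEFs to 1.72 TPM in eyes of wild-type mice. Dmc1 was listed in 5 tissues, from 0.134 TPM in MEFs to 1.64 TPM in eyes. Spo11 was listed in 5 tissues, and its 2.12 TPM in wild-type spleen stood above 0.292 TPM in eyes and at most 0.0671 TPM in prostate, heart and liver. Sycp2 reached 0.839 TPM (eyes, 5 tissues listed) and Syce1 0.470 TPM (eyes, 4 tissues listed).

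In 10 combinations of gene and tissue at least 1 genotype had a mean of 1 TPM or more, and 4 of the 10 ratios of Tug1-/- over wild type were past the bound. Sycp1 in prostate reached 1 TPM only in Tug1-/-, a mean of 2 samples, so the rule itself favoured a high ratio for it. The background differed by tissue: 27.0% of genes were past that bound in spleen, 17.5% in liver, 21.6% in eyes, 12.6% in heart, 18.7% in prostate and 21.1% in MEFs. The 4 were Sycp1 in prostate (2.05-fold), Syce2 in spleen (1.51-fold) and in liver (0.749-fold), and Dmc1 in eyes (0.778-fold). Both directions were thus seen, and for Syce2 they differed between spleen and liver. The other 6 ratios were those of Syce2 in eyes (0.825-fold), heart (1.17-fold), MEFs (1.03-fold) and prostate (1.04-fold), Sycp3 in eyes (0.889-fold) and Spo11 in spleen (0.814-fold). The Syce2 mean normalized count in spleen was 405, the largest of these 10 combinations.

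**Figure D4:**
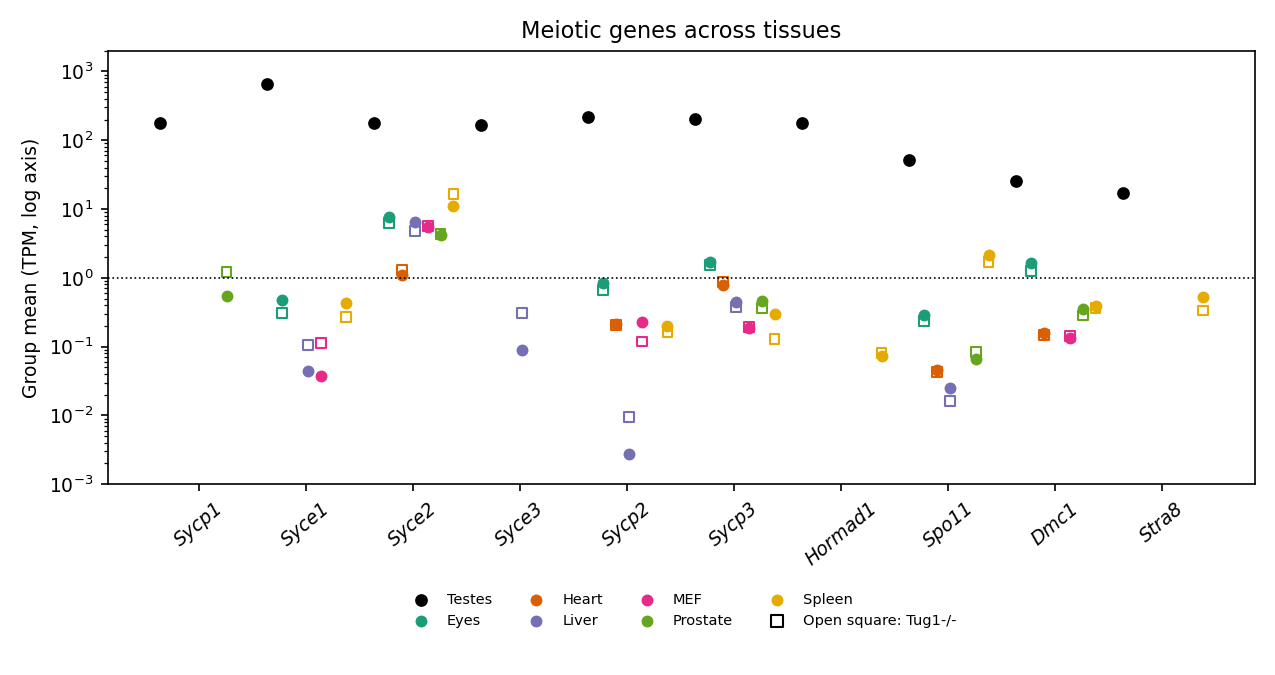
Group means in TPM (log axis) of the 10 meiotic genes in wild-type testes (black) and in 6 other tissues, with filled circles for wild type, open squares for Tug1-/-, a dotted line at 1 TPM, and no symbol where a gene was not listed. Testes are above all other tissues for each gene, and Syce2 alone is above 1 TPM in all 6 of them.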

How the data were processed

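RNA-seq of 46 of the 52 samples of the series was read through 2 deposited tables, 1 for testes and 1 for 6 other tissues. The authors made poly(A) libraries, aligned reads with STAR to GRCm38 with GENCODE vM16, took uniquely mapped reads to genes with featureCounts, dropped genes with under 3 reads in every replicate, and averaged TPM over the replicates of a group. The submitters' processing notes name CASAVA 1.8.2. In the other-tissue table the deposited mean normalized count is a score, the authors' mean of counts over size factors across all samples of a tissue. The tables also hold the authors' own comparisons (fold changes, statistics, p-values and calls from DESeq2), which were not used. The 2 columns of means were not used for brain, which no sample of this series stands behind, and 6 F1 hybrid testes were not analysed here.

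Ratios are log2 of group means in TPM plus 0.1, over genes with at least 1 TPM in any testes group, and a gene was counted past a bound where 1 mean was 25% higher or 20% lower. With no values of single samples and the authors' own comparisons not used, no test was run and no precision is given here. The 10 genes and all lists were chosen with earlier results of these data known. Named are the 10 genes, Tug1, the highest and lowest ratio of each pathway list and the most abundant marker of each list, some of which are not reported here; Gcdh and Chpt1, the tissue checks and the genes in the closing observations were chosen after their values were seen. Where 2 genes share a name (Spata22), the higher was taken. Gene overlaps came from GENCODE vM21, whose coordinates match the deposited ones for 9 of the 10 genes (not Dmc1). Motifs were searched on both strands of RefSeq windows. The counting of known ratios was checked on simulated ratios without noise, which tests the code only and not the spread between mice. Scripts ran under Python 3.11.15, numpy 2.4.6, pandas 2.3.3 and matplotlib 3.10.9. Alternatives were pseudocounts of 0 and 1 TPM, no minimum and 5 TPM, ratios centred on the median of all genes, bounds of 1.1 and 1.5-fold, shares of 90% and 99%, MEFs left out, and Tug1-/- means.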

Additional observations from a re-analysis of the deposited data

How the results depend on the processing

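Of 47 alternatives over 8 results, 42 left a count or a median log2 ratio within 1.5 times of its reported value and 5 did not. Several of the 42 could not have moved. All 10 genes are above 5 TPM, so the changed minima leave their values as they are. A count of 0 past the bound also stays 0 at 1.5-fold. At a bound of 1.1-fold, 3 of the 10 genes were past it in Tug1-/- over wild type and 4 in rescue over wild type, in place of 0, and 10 of the 40 other meiotic genes in Tug1-/- over wild type. With a share of 99% in testes, 5 genes in place of 8 were counted. Ratios centred on the median of all genes gave medians of 0.0593, 0.03 and 0.09 for Tug1-/- over wild type, rescue over Tug1-/- and rescue over wild type. No paired analysis was possible because the tables hold group means only, and for the same reason no replicate could be left out. Depth per sample is unknown, and the spread between mice was not assessed here.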

Other observations

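Among the 8 spermatogonia markers, Gfra1, the receptor subunit for GDNF on stem-like spermatogonia, had 11.1 TPM in wild-type testes, 3.84 TPM in Tug1-/- testes and 4.0 TPM in rescue testes. Its ratio of Tug1-/- over wild type was 0.351-fold, while the other 7 markers of the list ran from 0.995 to 1.14-fold. Insl3, a Leydig cell hormone gene, had 56.9 TPM in wild type, 144 TPM in Tug1-/- and 65.5 TPM in rescue testes, ratios of 2.52-fold for Tug1-/- over wild type and 0.456-fold for rescue over Tug1-/-. Of the other 5 Leydig cell markers, in the same order of groups, Star, which brings cholesterol into mitochondria for steroid synthesis, had 41.5, 68.7 and 44.5 TPM, and Hsd17b3 had 45.0, 62.9 and 48.1 TPM. Cyp17a1 had 235, 341 and 315 TPM, Cyp11a1 had 43.2, 75.5 and 83.0 TPM, and Hsd3b1 had 107, 112 and 131 TPM. The 6 markers thus do not share 1 order of the 3 groups. These are group means with no error, and Gfra1 and Insl3 were picked after their values were seen.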
